A study of Mus musculus with 7 samples.

Results

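Genes of protein folding in the endoplasmic reticulum (ER) and of the unfolded protein response were examined in the medial prefrontal cortex (mPFC) of mice given recombinant human thrombospondin-1 or saline. The set held 40 of the 25467 genes in the count table. They were chosen by name, with earlier TSP1-against-PBS results of these libraries in view, in which Hspa5 had been singled out. Their differences between the groups are therefore given as a description, and the adjusted p-values come from a test of the whole table. The 40 comprised 16 ER chaperones and folding enzymes, 5 sensors and transcription factors, 6 genes of the PERK-ATF4 arm, 10 genes of ER-associated degradation and 3 genes of the translocon, the channel through which new proteins enter the ER. All were in the table, and 39 passed the filter on low counts. Trib3, a kinase-like target of Atf4, did not, with between 1 and 13 reads per library.

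The libraries were 4 from mice labelled as given rhTSP1, the recombinant human protein (called TSP1 below), and 3 from mice labelled PBS, given phosphate-buffered saline. Each was made from 1.3 µg of total RNA, and the series describes 7 different mice. The sample labels give the tissue as brain and the series title gives mPFC. Strain, sex, age, dose, route and time are not stated in the labels. Library totals ran from 15090336 to 20755167 counts. All 10 markers of cortical excitatory neurons were detected in every library, with a summed level of 5115 to 7234 CPM (counts scaled to a common library size) with TSP1 and 6614 to 7411 CPM with PBS. TSP1 replicate 4 stood apart in 10 striatal neuron markers, at a summed 619.5 CPM against 234 to 264 in the other 6 libraries, and had the highest myelin markers.

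Secreted and membrane proteins fold in the ER with the help of chaperones. When unfolded proteins accumulate there, the kinase and nuclease Ire1 (gene Ern1), the kinase Perk (Eif2ak3) and the membrane-bound factor Atf6 are activated. Cleaved Atf6 and the spliced form of Xbp1 raise chaperone and degradation genes, while Perk phosphorylates the initiation factor eIF2 and favours translation of Atf4, a factor for amino acid and stress genes. Neurons and glia of the cortex, which make large amounts of membrane and secreted protein, use this machinery under resting conditions. The comparison bears on whether TSP1, itself a secreted glycoprotein, was accompanied by different transcript levels of these arms. Counts per gene do not separate spliced from unspliced Xbp1, and they do not show cleavage of Atf6 or phosphorylation of Perk and Ire1.

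Transcript levels of the chaperone genes spread over most of the range of the set, from Calr at rank 1 of 40 to Manf at rank 32. Levels between genes were compared as CPM per kilobase of exon, averaged over the 7 libraries, and the exon length spans all annotated isoforms. Calr, the lectin chaperone calreticulin, was highest at 93.2 (range over libraries 80.8 to 99.0), and its range did not overlap that of the next gene. Canx, its membrane-bound relative calnexin, followed at 62.0. Os9, a lectin that passes misfolded glycoproteins to degradation, was at 55.2, and Hspa5, the ER Hsp70 chaperone BiP, at 50. Then came Hsp90b1, the ER Hsp90, at 46.1, and Pdia3, a disulphide isomerase of glycoproteins, at 44.3. The ranges of Canx, Os9, Hspa5, Hsp90b1, Pdia3 and Atf4 overlapped from each to the next. Least abundant were Chac1 (2.67), Ern1 (2.29) and Trib3 (0.201). Over the whole order, 35 of 39 neighbouring pairs had overlapping ranges.

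Several of these genes carried stress elements in the 300 bases around their start. RefSeq promoter windows (GRCm38.p6, 250 bases before to 50 after the transcript start) were found for 35 of the 40. The ER stress element ERSE, through which Atf6 acts together with NF-Y, was searched as CCAAT and CCACG separated by 9 bases, on both strands. It matched in 8 of the 35 genes (22.9%), against 39 of 32851 windows over all genes (0.119%). The shorter element ERSE-II (ATTGG, 1 base, CCACG) matched in Herpud1 and Dnajb11, against 0.0365% of all windows. The sequence TGACGTGG, known as UPRE, matched in 0 of the 35 and in 0.676% of all windows. The Atf4 element CARE, searched as TGATG and AA separated by 1 base, matched in 4 of the 35 (Asns, Chac1, Trib3 and Herpud1) and in 3.97% of all windows. A match of letters is a description and no evidence of binding. The elements did not overlap each other in any of these genes. The sequences below run 5′ to 3′ on the strand of the gene, with the matched letters in capitals, and show the same elements in genes whose values differed in size. They are the windows of Hspa5 at chr2:34772010-34772058, Pdia6 at chr12:17266476-17266524, Dnajc3 at chr14:118937812-118937860 and Herpud1 at chr8:94386362-94386402, all on the plus strand. On the minus strand lay Calr at chr8:84847060-84847108, Canx at chr11:50325785-50325833 and Asns at chr6:7693210-7693247.
Hspa5: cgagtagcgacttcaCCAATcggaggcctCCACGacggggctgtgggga
Pdia6: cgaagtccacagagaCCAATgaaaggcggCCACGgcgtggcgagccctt
Dnajc3: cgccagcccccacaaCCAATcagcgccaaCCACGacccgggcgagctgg
Calr: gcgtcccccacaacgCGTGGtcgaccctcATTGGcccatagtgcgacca
Canx: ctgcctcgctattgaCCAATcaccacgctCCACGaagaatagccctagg
Herpud1: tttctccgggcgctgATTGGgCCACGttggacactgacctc
Asns: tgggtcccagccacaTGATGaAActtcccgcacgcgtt

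In Calr the element reads on the opposite strand, so its letters appear as CGTGG and ATTGG. The ERSE lay 65 to 47 bases before the start in Hspa5, 98 to 80 in Pdia6, 105 to 87 in Dnajc3, 162 to 144 in Calr and 145 to 127 in Canx.

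**Figure D1:**
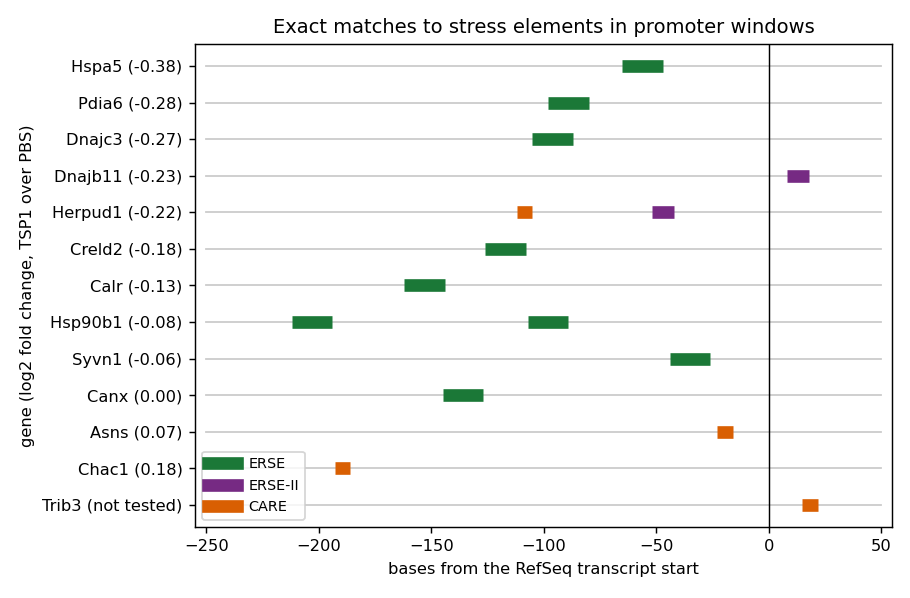
Positions of exact matches to ERSE (green), ERSE-II (purple) and CARE (orange) in the RefSeq promoter windows of the 13 genes with a match, in bases from the transcript start, with the log2 fold change of each gene (TSP1 over PBS) in brackets. Genes with an ERSE run from -0.38 (Hspa5) to 0.00 (Canx).

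The chaperone and folding group was lower with TSP1 than with PBS in its fitted values. All 16 genes had a log2 fold change of at most 0 (median -0.18, range -0.65 to 0.00), where 48.9% of the 17211 genes tested lay below 0 and their median was 0.00. At an unadjusted p under 0.05 in edgeR's quasi-likelihood test 8 of the 16 were lower and 0 higher. The background was 5.44% of all genes lower and 4.21% higher. In 9 of the 16 every TSP1 library lay below every PBS library, as it did in 5.26% of all genes. A TSP1 library was the lowest of the 7 for all 16 genes, in 10 of them replicate 1, and a PBS library was the highest for 13. TSP1 made up 4 of the 7 libraries, and lowest and highest libraries were not counted over all genes. Since the list was drawn up with this contrast known, nothing is read from these shares. None of the 40 genes passed the adjustment over all genes, and neither did any other gene in this test (0%), in which the smallest adjusted p of the set was 0.123.

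**Figure D2:**
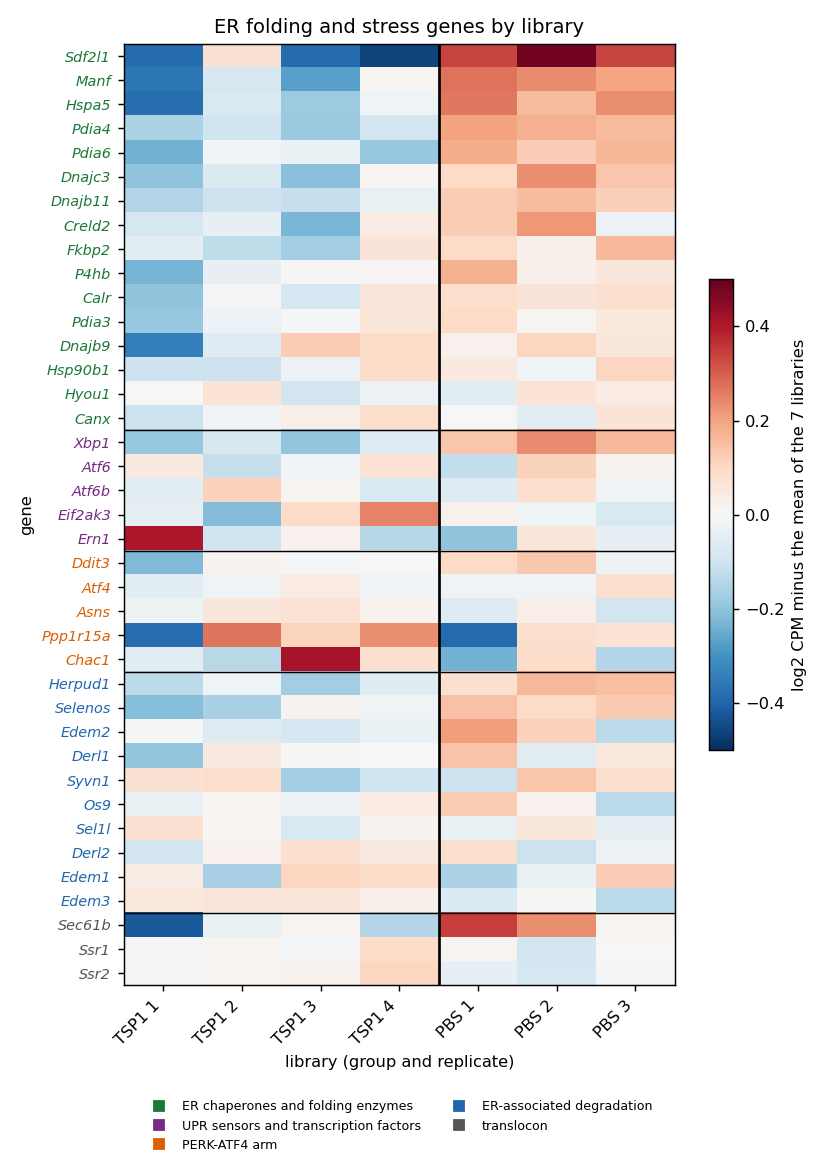
Log2 CPM of the 39 tested genes in each library (columns, 4 TSP1 then 3 PBS) relative to the mean of the 7 libraries, with genes grouped by role (coloured names) and ordered by fold change within the group. Colours end at 0.5 in each direction, and the uppermost rows are blue or pale in TSP1 and red in PBS.

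Hspa5, the gene of BiP, which binds unfolded chains and restrains the stress sensors, lies on chromosome 2 from 34771970 to 34777547 (GRCm38; ENSMUSG00000026864). It had 161, 198, 184 and 206 CPM in TSP1 replicates 1 to 4, against 251, 233 and 245 CPM in PBS replicates 1 to 3. The groups did not overlap, and TSP1 replicate 1 was lowest. Hspa5 averaged 187 ± 19.8 CPM with TSP1 and 243 ± 9.08 with PBS (SD, n = 4 and 3), a log2 fold change of -0.38 (SE 0.08), which corresponds to -23.0% (edgeR adjusted p = 0.134).

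Sdf2l1, a partner of BiP and its co-chaperones in the lumen, had the largest fold change of the set. It lies on chromosome 16 from 17130138 to 17132383 (ENSMUSG00000022769) and had 6.79, 9.36, 6.80 and 6.43 CPM in TSP1 libraries, against 11.2, 12.4 and 11.2 in PBS libraries. TSP1 replicate 2 stood above the other 3 but below all PBS libraries. Its log2 fold change was -0.65 (SE 0.14, edgeR adjusted p = 0.155). Manf, a secreted ER stress protein with neurotrophic activity (chromosome 9, 106838312 to 106891979; ENSMUSG00000032575), had 21.6, 26.2, 23.0 and 28.0 CPM with TSP1, against 33.5, 32.7 and 31.8 with PBS. The gap between the groups was wider than the range within PBS but narrower than the range within TSP1. The log2 fold change was -0.40 (SE 0.09, edgeR adjusted p = 0.171).

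The disulphide isomerases, which form and rearrange disulphide bonds, differed among themselves. Pdia4 (chromosome 6, 47796141 to 47813430; ENSMUSG00000025823) had 33.0, 34.4, 32.4 and 34.5 CPM with TSP1, against 42.4, 41.7 and 41.1 with PBS. Its libraries lay close together within each group, at 33.6 ± 1.04 CPM with TSP1 and 41.7 ± 0.677 with PBS (SD, n = 4 and 3), and the log2 fold change was -0.31 (SE 0.07, edgeR adjusted p = 0.139). Pdia6 had 81.7, 95.3, 94.1 and 84.5 CPM with TSP1, against 109.5, 105 and 108 with PBS, again without overlap (log2 fold change -0.28, with SE 0.07 and edgeR adjusted p = 0.217). P4hb, the founding member of the family, was at -0.15 (SE 0.07), with 78.3 to 92.3 CPM with TSP1 and 93.5 to 104 with PBS. Pdia3 was at -0.09 (SE 0.07), with overlapping groups. The ratio of Pdia4 to Pdia3 counts within a library, which does not depend on scaling, was 0.235 to 0.269 with TSP1 and 0.285 to 0.297 with PBS. This pair was chosen after its values were seen.

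Co-chaperones of BiP with a J domain, which stimulate its ATPase, were also lower in part. Dnajb11 had 39.2, 40.4, 40.1 and 42.3 CPM in TSP1 libraries, against 47.4, 48.3 and 47.1 in PBS libraries (log2 fold change -0.23, with SE 0.06 and edgeR adjusted p = 0.279). Dnajc3 had 51.2, 55.9, 50.9 and 59.4 CPM with TSP1, against 63.0, 69.2 and 64.7 with PBS (log2 fold change -0.27, with SE 0.07 and edgeR adjusted p = 0.256). Neither gene overlapped between the groups, whereas Dnajb9, the J-domain partner that represses Ire1, did. Dnajb9 was at 25.9 CPM in TSP1 replicate 1, below the 31.4 to 35.9 of the other TSP1 libraries and the 33.3 to 35.4 of PBS (log2 fold change -0.09, SE 0.10).

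The remaining folding genes had fitted values between -0.18 and 0.00. Calr had 233, 267, 252 and 279 CPM with TSP1, against 285, 280.2 and 283 with PBS, without overlap, but with TSP1 replicate 4 close to PBS replicate 2. Its log2 fold change of -0.13 (SE 0.07) had an unadjusted p of 0.0724 in edgeR. Hsp90b1 was at -0.08 (SE 0.07), Hyou1, an Hsp70 relative that exchanges nucleotide on BiP, at -0.03 (SE 0.06), and Canx at 0.00 (SE 0.07). The groups of all 3 overlapped. Creld2, a secreted isomerase-like stress protein, was at -0.18 (SE 0.10). Fkbp2, a prolyl isomerase of the lumen, had 44.9, 42.6, 41.2 and 48.6 CPM with TSP1, against 49.9, 47.4 and 52.0 with PBS, with TSP1 replicate 4 above PBS replicate 2. Its log2 fold change of -0.17 (SE 0.07, unadjusted p = 0.0381 in edgeR) became -0.07 after correction for exon length and GC content (unadjusted p = 0.379 in edgeR).

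Ratios within each library restated the uneven pattern without any scaling. The pairs of genes were chosen after their values were seen, so the ratios are no separate evidence. Hspa5 counts divided by Hsp90b1 counts gave 0.930, 1.15, 1.01 and 1.04 in TSP1 libraries, against 1.31, 1.27 and 1.23 in PBS libraries. Divided by Canx counts, Hspa5 gave 0.596 to 0.691 with TSP1 and 0.809 to 0.865 with PBS. Both ratios were lower in every TSP1 library than in every PBS library. The ratio of Sdf2l1 to Hspa5 overlapped between the groups, at 0.0313 to 0.0473 with TSP1 and 0.0445 to 0.0530 with PBS.

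**Figure D3:**
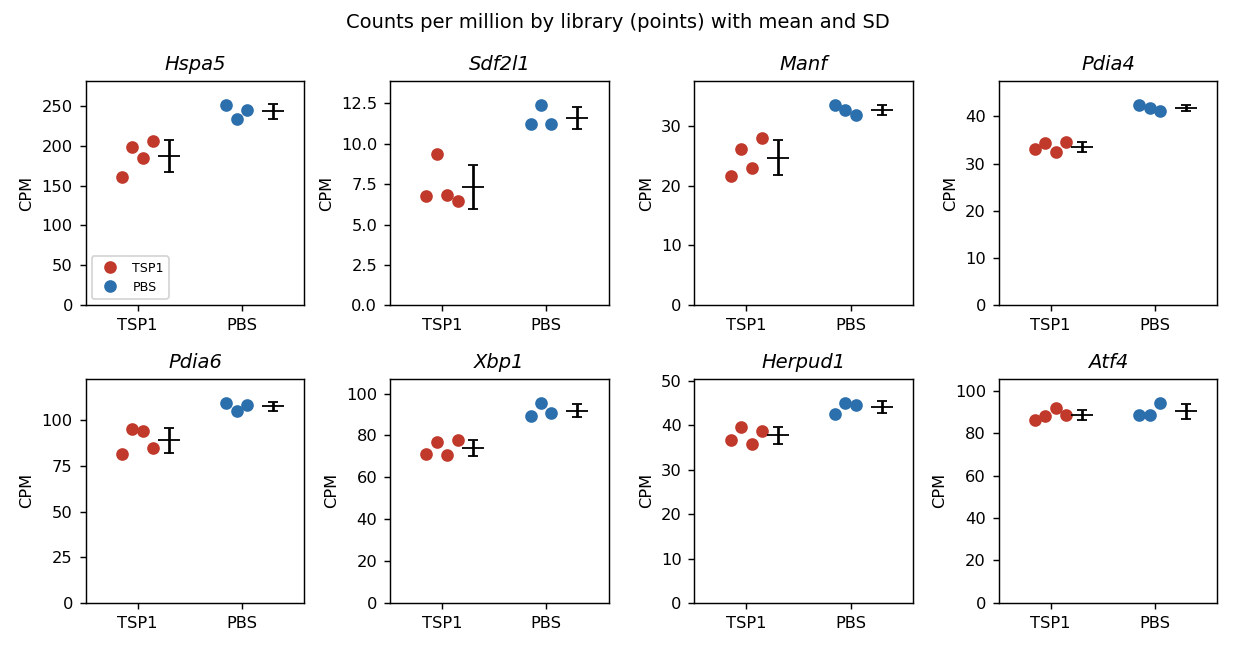
CPM per library (points) of 8 genes with TSP1 (red, left) and PBS (blue, right), with mean and SD in black and the axis starting at 0. The groups are apart in the panels of Hspa5, Sdf2l1, Manf, Pdia4, Pdia6, Xbp1 and Herpud1, whereas those of Atf4 overlap.

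Among the sensors and transcription factors Xbp1 stood alone. Xbp1, whose spliced form drives folding and degradation genes and whose transcript is itself a target of Atf6, lies on chromosome 11 from 5520659 to 5525893 (ENSMUSG00000020484). It had 71.1, 76.7, 70.7 and 77.6 CPM in TSP1 libraries, against 89.3, 95.6 and 90.7 in PBS libraries. Every PBS library was above every TSP1 library, by more than the range within either group. Xbp1 averaged 74.0 ± 3.66 CPM with TSP1 and 91.8 ± 3.34 with PBS (SD, n = 4 and 3), a log2 fold change of -0.31 (SE 0.06). Of the 40 genes it had the smallest p, at rank 28 of the 17211 genes (edgeR adjusted p = 0.123).

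The genes of the sensors themselves overlapped between the groups. Atf6 had 103, 92.1, 98.7 and 105 CPM with TSP1, against 91.6, 108 and 101 with PBS (log2 fold change -0.01, SE 0.07). Its paralog Atf6b was at 0.00 (SE 0.07). Eif2ak3, the gene of Perk, had 26.6, 23.7, 29.4 and 32.7 CPM in TSP1 libraries, against 27.9, 27.1 and 26.1 in PBS libraries, so the TSP1 libraries enclosed the PBS ones (log2 fold change 0.05, SE 0.10). For Ern1, the gene of Ire1, the values were 24.5, 17.3, 18.8 and 16.8 CPM with TSP1, against 16.1, 19.3 and 18.0 with PBS. TSP1 replicate 1 was alone above 20 CPM, and without it the log2 fold change of 0.12 (SE 0.13) became -0.01.

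The PERK-ATF4 arm had fitted values on both sides of 0. Of its 5 tested genes 2 were below 0 and 3 above (median 0.07, range -0.12 to 0.18), with 0 at an unadjusted p under 0.05 in edgeR in either direction, and the groups of all 5 overlapped. Atf4, the factor of the arm, had 86.0, 87.9, 91.9 and 88.5 CPM with TSP1, against 88.3, 88.3 and 94.3 with PBS (log2 fold change -0.03, SE 0.06). Ddit3, which encodes the stress factor Chop, had 17.8, 21, 20.6 and 20.8 CPM in TSP1 libraries, against 22.2, 22.8 and 20.4 in PBS libraries (log2 fold change -0.12, SE 0.09, unadjusted p = 0.203). The Atf4 targets Asns, an asparagine synthetase, and Chac1, which degrades glutathione, were at 0.07 (SE 0.06) and 0.18 (SE 0.18). Ppp1r15a, which recruits a phosphatase to eIF2, was at 0.16 (SE 0.16) and had below 10 CPM in TSP1 replicate 1 and in PBS replicate 1. Chac1 and Ppp1r15a had values about the size of their SEs, so differences as large as the chaperone median (-0.18) could be missed there. Trib3 reached 0.066 to 0.545 CPM with TSP1 and 0.428 to 0.769 with PBS, too few reads for a comparison. Xbp1 counts divided by Atf4 counts were 0.769 to 0.877 with TSP1 and 0.961 to 1.08 with PBS, without overlap. That pair, too, was chosen after its values were seen.

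ER-associated degradation, which returns misfolded proteins to the cytosol for the proteasome, was divided. Of 10 genes 6 were below 0 and 4 above (median log2 fold change -0.04), and 2 were lower at an unadjusted p under 0.05. Herpud1, a stress-induced organizer of the degradation complex, had 36.8, 39.7, 35.7 and 38.7 CPM with TSP1, against 42.6, 45.1 and 44.7 with PBS. Its groups did not overlap (log2 fold change -0.22, with SE 0.07 and edgeR adjusted p = 0.313). Selenos, a selenoprotein of the same complex, had 21.2, 22.0, 24.9 and 24.3 CPM with TSP1, against 27.2, 26.3 and 26.9 with PBS (log2 fold change -0.21, SE 0.08). The unadjusted p of Selenos was 0.0195 in edgeR, but 0.0547 without PBS replicate 1 and 0.0552 without TSP1 replicate 2.

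The core ligase and its adaptor were close to 0. Sel1l was at 0.01 (SE 0.06) and Syvn1, the ligase Hrd1, at -0.06 (SE 0.08), and the pore-forming Derl1 and Derl2 were at -0.08 (SE 0.08) and 0.03 (SE 0.08). The mannosidase-like genes Edem1, Edem2 and Edem3, which mark glycoproteins for disposal, were at 0.04 (SE 0.09), -0.12 (SE 0.09) and 0.11 (SE 0.06). Edem3 had 60, 60.3, 60.3 and 58.8 CPM in TSP1 libraries, against 55.1, 58.0 and 52.7 in PBS libraries. With Ssr2 it was one of the 2 genes of the set whose TSP1 libraries all lay above PBS, as they did in 4.83% of all genes. Os9 was at -0.01 (SE 0.07).

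Of the translocon genes Sec61b, a small subunit of the channel, had 8.51, 11.1, 11.5 and 10.3 CPM with TSP1, against 14.5, 13.4 and 11.5 with PBS. The groups met at TSP1 replicate 3 and PBS replicate 3 (log2 fold change -0.34, SE 0.13, unadjusted p = 0.0168 in edgeR). Without PBS replicate 1 the value was -0.26 (unadjusted p = 0.0900 in edgeR), and with replicate number as a block the unadjusted p was 0.0514 in edgeR. Ssr1 and Ssr2, subunits of the translocon-associated complex, were at 0.05 (SE 0.06) and 0.08 (SE 0.07).

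**Figure D4:**
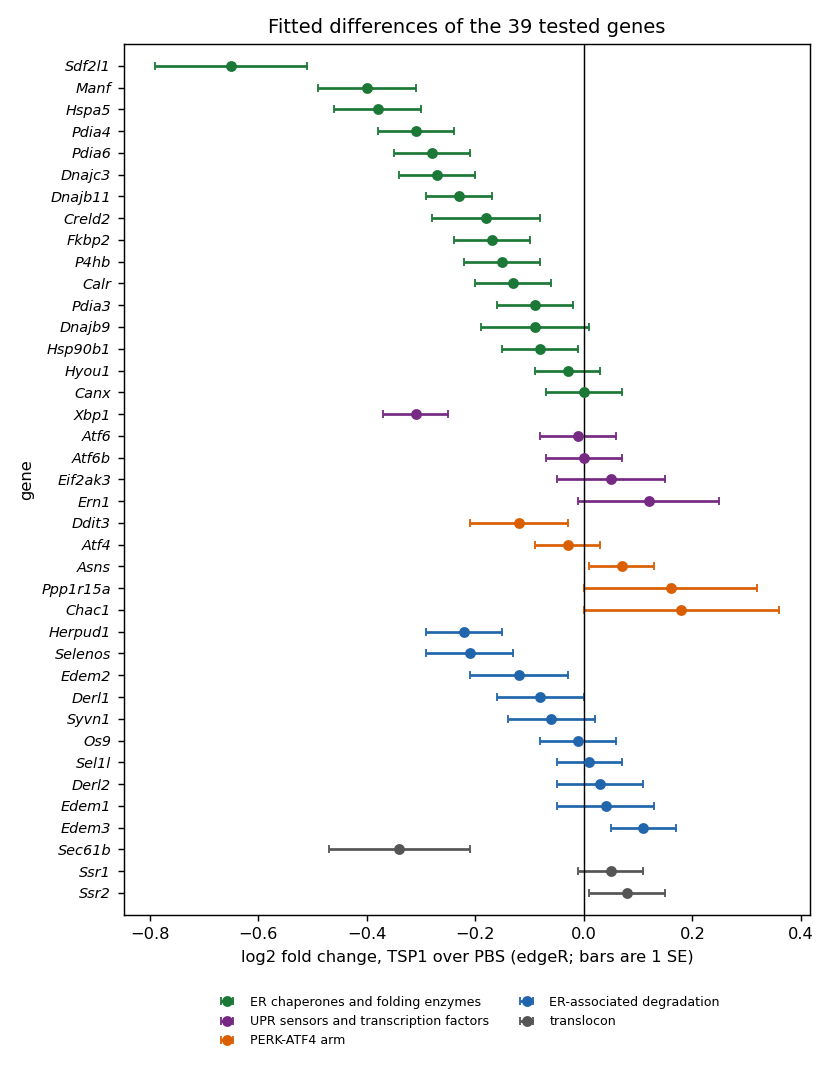
Log2 fold change of TSP1 over PBS for the 39 tested genes, with bars of 1 SE from edgeR, grouped by role. The chaperone group reaches from -0.65 for Sdf2l1 to 0.00 for Canx, and the PERK-ATF4 arm spans 0 with a median of 0.07.

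Over the whole set 28 of 39 tested genes were below 0 (71.8%, against 48.9% of all genes). At an unadjusted p under 0.05 in edgeR 12 were lower (30.8%) and 0 higher, against 5.44% and 4.21% of all genes. In 12 the TSP1 libraries all lay below PBS, as they did in 5.26% of all genes. As the list was drawn up with this contrast known, nothing is read from these shares. The 12 at an unadjusted p under 0.05 were Hspa5, Pdia4, Pdia6, Dnajb11, Dnajc3, Sdf2l1, Manf, Fkbp2, Xbp1, Herpud1, Selenos and Sec61b. Of these 10 had no overlap. Calr and P4hb had no overlap either, at an unadjusted p above 0.05 in edgeR. DESeq2 gave an adjusted p under 0.05 to 5 of the 40, against 0.603% of the genes to which it gave one. These were Hspa5 (DESeq2 adjusted p = 0.00526), Xbp1 (0.0117), Sdf2l1 (0.0239), Pdia4 (0.0433) and Manf (0.0439). The exact test of edgeR called the same 5, against 0.494% of all genes, with adjusted p from 0.0116 to 0.0435.

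Other genes of the same pathways were taken from 5 lists of 154 genes, of which 150 were tested. Their median log2 fold change was -0.02, with 96 below 0 and 54 above, where 48.9% of all genes tested lay below 0. At an unadjusted p under 0.05 in edgeR 9 were lower and 6 higher, near the share over all genes. Among 32 other folding genes 18 were below 0 (median -0.01), with 0 lower and 1 higher at that p. This was the J-domain gene Dnajb14, with 109.5 ± 3.73 CPM with TSP1 and 100.2 ± 1.49 with PBS. Among 26 other degradation genes 18 were below 0 (median -0.02). At that p 1 was higher, the Vcp recruiter Faf2 (log2 fold change 0.16, SE 0.06), and 1 lower, the ubiquitin-conjugating enzyme gene Ube2g2 (-0.24, SE 0.10).

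In the list of translocon, signal peptidase and oligosaccharyltransferase genes 24 of 32 were below 0 (median -0.07). Tusc3 and Magt1, alternative subunits of the same oligosaccharyltransferase, had opposite signs, at 0.18 (SE 0.07) and -0.22 (SE 0.10). Ssr4, the partner of Ssr1 and Ssr2, was at -0.19 (SE 0.07). Of 20 other signalling genes 14 were below 0, and Nfe2l2, the oxidative stress factor Nrf2, averaged 16.1 ± 1.57 CPM with TSP1, against 21.3 ± 1.36 CPM in the PBS libraries (log2 fold change -0.41, with SE 0.10 and edgeR adjusted p = 0.188).

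The list of integrated stress response and Atf4 target genes had 22 of 40 below 0 (median -0.01), with 5 lower and 3 higher at an unadjusted p under 0.05. Eif2ak4, the amino acid sensor Gcn2, was at 0.28 (SE 0.09) and Vldlr, a lipoprotein and reelin receptor, at 0.16 (SE 0.06). Gpt2, a mitochondrial transaminase, was at -0.21 (SE 0.08). Atf3, a stress-induced repressor, had 0.396 to 0.988 CPM with TSP1 and 1.06 to 4.34 with PBS. Its log2 fold change of -1.61 (SE 0.54) was -0.67 without PBS replicate 3 (unadjusted p = 0.137 in edgeR).

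Markers of several other cell types and ribosomal protein transcripts also had fitted values mostly below 0 with TSP1, and their part in the chaperone differences was not tested. In bulk tissue fewer cells of a type and less RNA per cell cannot be told apart. The fitted values were below 0 for 12 of 12 microglia, 11 of 12 astrocyte and 12 of 12 endothelial markers and 21 of 21 cytosolic ribosomal protein genes, with medians of -0.34, -0.21, -0.21 and -0.19. At an unadjusted p under 0.05 in edgeR 8, 5, 5 and 9 of them were lower and 0 higher. Values within a list were uneven, from -0.54 to -0.02 in microglia, -0.42 to 0.00 in astrocyte and -0.96 to -0.03 in endothelial markers. Ribosomal protein genes ran from -0.39 to -0.05. Oligodendrocyte precursor markers were below 0 in 7 of 8 genes (median -0.17, 3 lower at that p), interneuron markers in 5 of 8 (median -0.18, 4 lower) and myelin markers in 10 of 12 (median -0.12, 1 lower). Without TSP1 replicate 4 the myelin median was -0.58. Cortical excitatory neuron markers were below 0 in 7 of 10 genes (median -0.03, 0 at that p). Striatal neuron markers were above 0 in 10 of 10 genes (median 0.56, 0 at that p), with a median of -0.04 without TSP1 replicate 4. Of 8 choroid plexus markers 2 were tested, both above 0, and Ttr, Folr1, Otx2 and Slc4a5 were at 0 counts in some library. No gene of the other marker lists was at 0 counts in a library. Summed levels of microglia markers were 479 to 607 CPM with TSP1 and 623 to 719.6 with PBS, and those of endothelial markers were 269 to 348 and 351 to 439. Astrocyte markers summed to 5511 to 6798 CPM with TSP1 and 6391 to 7426 with PBS, and ribosomal transcripts to 3476 to 4371 and 4334 to 4868, with overlap in both.

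Means over the chaperone, microglia, astrocyte, endothelial and oligodendrocyte precursor lists each separated the groups, and the ribosomal mean did not. Narrow separations also occurred in lists with medians near 0. The highest TSP1 and lowest PBS means were 0.00 and 0.01 for the degradation genes. For the 150 other pathway genes they were 0.01 and 0.02. The mean log2 CPM of the 16 chaperone genes, relative to the mean of the 7 libraries, was -0.20, -0.05, -0.11 and -0.02 in TSP1 replicates 1 to 4 and 0.13, 0.13 and 0.12 in PBS replicates 1 to 3. Ribosomal transcripts, in the same order, were at -0.30, -0.05, 0.03 and 0.00 with TSP1, against 0.20, 0.01 and 0.12 with PBS. How the chaperone and ribosomal differences relate to each other was not tested. Microglia marker means were -0.25, 0.02, -0.02 and -0.33 in TSP1 replicates 1 to 4, against 0.27, 0.23 and 0.08 in PBS replicates 1 to 3. Astrocyte marker means were -0.26, 0.04, 0.03 and -0.20 with TSP1, against 0.12, 0.09 and 0.18 with PBS. Those of endothelial markers were 0.02, -0.22, -0.03 and -0.36 with TSP1, against 0.25, 0.30 and 0.04 with PBS. All 3 lists were lower in every TSP1 library than in every PBS library, as the chaperones were. TSP1 replicate 1 was lowest in the chaperone, ribosomal and astrocyte means. Without it the chaperone median was -0.18, and without TSP1 replicate 4 it was -0.22.

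**Figure D5:**
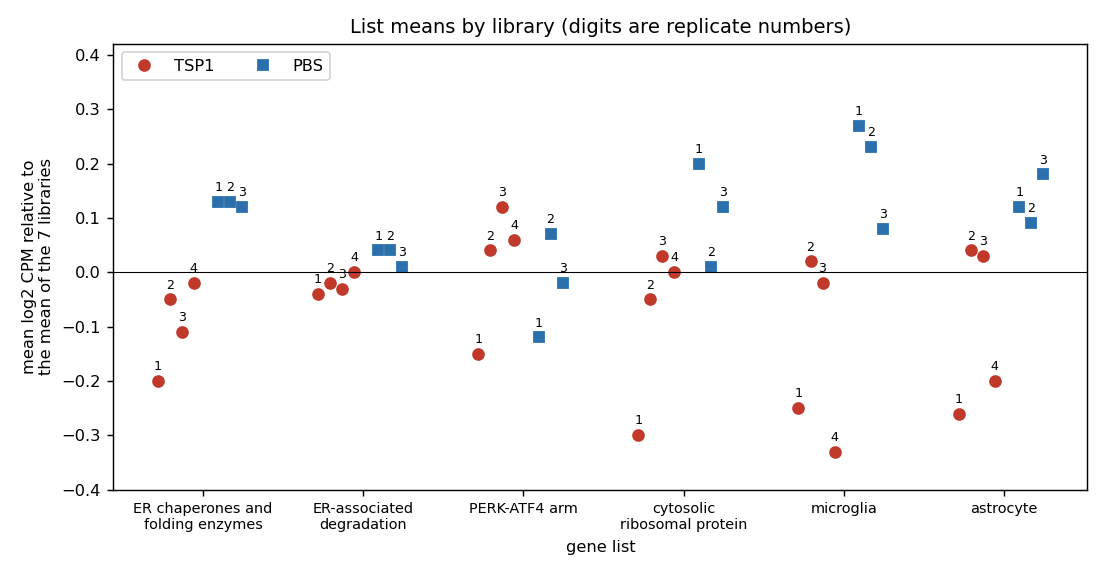
Mean log2 CPM of 6 gene lists in each library relative to the mean of the 7 libraries, TSP1 (red circles, left) and PBS (blue squares, right), with replicate numbers beside the points. Chaperone means reach -0.02 in TSP1 and start at 0.12 in PBS, and microglia and astrocyte means are also apart. Degradation means are narrowly apart (0.00 and 0.01), and those of the PERK-ATF4 arm and the ribosomal list overlap.

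Genes with and without a stress element in their promoter were compared by their values only. The 10 genes with an ERSE or ERSE-II match had a median log2 fold change of -0.20, 10 of 10 at or below 0, and 5 at an unadjusted p under 0.05. The 24 tested genes that had a window but neither element had a median of -0.02, with 14 below 0 and 6 at that p. The 10 genes with a match, apart from Syvn1 and Herpud1, were chaperone or folding genes, a list with a median of -0.18. Membership of that list and presence of the element therefore cannot be told apart in these medians. Chaperone genes with a window and neither element ran from -0.65 (Sdf2l1) to -0.09 (Pdia3 and Dnajb9). The 10 genes with a match all shared an element, and their values ran from -0.38 (Hspa5) to 0.00 (Canx). Among them Canx, Hsp90b1 and Syvn1 carried an ERSE and were at 0.00, -0.08 and -0.06. Xbp1, Pdia4 and Sdf2l1 had no exact match in these windows, and for Manf no window was used.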

How the data were processed

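RNA sequencing counts of 7 mouse mPFC libraries (4 TSP1, 3 PBS) were used. The authors' deposited table holds raw counts per gene, as judged from its whole numbers and unequal totals. RNA was purified on columns and libraries followed a SMARTer mRNA protocol, per the labels' protocols. The submitters' processing notes name the builds GRCm38 and mm10, while the aligner, counter, annotation and strand setting are unstated there. Reads of overlapping genes therefore cannot be told apart. Of the members, Hsp90b1 shares 10.3% and Ssr2 12.8% of their exon bases with a pseudogene on the other strand, Eif2ak3 shares 8.05% with a gene model on the other strand, and Ddit3 6.13% with another gene of that name. Columns were matched to samples by the number that opens each description, and 0 columns belonged to other samples. No batch is labelled, and library numbers (1 to 4 for TSP1, and 8, 11 and 12 for PBS) split as the groups do, so order and treatment cannot be told apart.

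Symbols, positions and exon lengths came from GENCODE M21 (25375 of 25467 identifiers matched). Within a group, chi-square per degree of freedom between libraries was 3.98 to 13.4, above sampling noise. Genes were tested with edgeR 4.0.16 under R 4.3.3 (filterByExpr, TMM, robust quasi-likelihood, two-sided, Benjamini-Hochberg over 17211 genes, threshold 0.05), tested on simulated counts. SE denotes the absolute log2 fold change divided by the root of the F statistic, with a median of 0.11 over all genes and 0.07 over the members. CPM used TMM scaling, and log2 CPM a prior count of 2. The members, lists and tests were chosen with earlier results of these data known. All members were accounted for, with values per library for those at an unadjusted p under 0.05 and for 7 genes of the sensors and arms, and up to 4 genes were named per list of other pathway genes. Calr, Dnajb9, Edem3 and the ratios were added after their values were seen. Lists are described by counts and medians. Alternatives were other size factors, tools and low-count filters, a correction for exon length and GC content, a replicate block, and the omission of single libraries. P-values set the groups against the spread between these libraries.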

Additional observations from a re-analysis of the deposited data

Results flagged for a closer look

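In the 4 TSP1 libraries 2 of the 40 genes had 1 library far from the others, where chance gives about 1 in 20. Sdf2l1 was at 9.36 CPM in TSP1 replicate 2, above 6.43 to 6.80 in the other TSP1 libraries, a gap of 0.872 of the group's range. Ddit3 was at 17.8 CPM in TSP1 replicate 1, below 20.6 to 21 in the others, a gap of 0.888 of the range.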

How the results depend on the processing

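Genes at an adjusted p under 0.05 numbered 0 in the quasi-likelihood test, 88 in DESeq2 1.42.0 (which gave no adjusted p to 10876 genes), 85 in edgeR's exact test, 19 with no low-count filter and 0 in limma-voom 3.58.1. With 1 library left out, genes at an adjusted p under 0.05 numbered 0 to 9, namely 9 without PBS replicate 3, 1 without PBS replicate 1 and 1 without TSP1 replicate 2. Members at an adjusted p under 0.05 numbered 0, but 5 in DESeq2 and 5 in the exact test. At an unadjusted p under 0.05 the quasi-likelihood test had 1661 genes. Members lower at an unadjusted p under 0.05 numbered 9 to 14 over 15 alternatives, and 9 of the 12 (all but Fkbp2, Selenos and Sec61b) were under it in each. Fitted values were below 0 in each alternative for 14 of 16 chaperone genes, Canx and Hyou1 being the exceptions.

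The median of the set was -0.12 to -0.05 and that of the chaperones -0.22 to -0.16 with 1 library left out. The chaperone median was -0.12 after the length and GC correction and -0.22 with the replicate block. Degradation genes ranged from -0.06 to -0.01 and the PERK-ATF4 arm from 0.01 (without PBS replicate 1) to 0.11. The translocon median was -0.02 after the length and GC correction. ERSE genes outside the set had a median of 0.03 with at least 5 CPM in 3 libraries and -0.14 to 0.03 with 1 library left out.

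Signs turned for genes near 0. After the length and GC correction Atf4 was at 0.02, Sel1l at -0.03, Derl2 at -0.02, Os9 at 0.04 and Ssr1 at -0.02, and with the replicate block Eif2ak3 was at -0.03. With 1 library left out Atf6 ranged from -0.07 to 0.06, Ern1 from -0.01 to 0.19, Eif2ak3 from -0.02 to 0.13, Atf4 from -0.05 to 0.01, Sel1l from -0.01 to 0.05, Edem1 from -0.02 to 0.12, Derl2 from -0.01 to 0.08 and Os9 from -0.08 to 0.05. The causes were not tested.

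Deviations of TSP1 and PBS libraries of the same replicate number correlated at -0.261, -0.0331 and 0.0103, and those of unequal number at -0.078 to 0.209. These few values showed no pairing by replicate number but cannot exclude it. Under the replicate block, in which TSP1 replicate 4 has no partner and carries no weight, 12 members were lower at an unadjusted p under 0.05 and 0 genes had an adjusted p under 0.05. Of these members 11 were shared with the fit without it, and Sec61b left as Calr entered. With 1 to 13 reads per library, no difference of Trib3 was detectable at this depth.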

Other observations

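Outside the 40 genes, exact ERSE matches stood in the promoter windows of 29 genes, of which 11 were tested. Their median log2 fold change was -0.05, with 6 below 0 and 5 above. Derl3, a relative of Derl1 and Derl2 in ER-associated degradation, had 1.04 to 1.18 CPM with TSP1 and 1.34 to 1.77 with PBS, without overlap (log2 fold change -0.54, SE 0.26, unadjusted p = 0.0558 in edgeR). Adcy3, an adenylyl cyclase gene, was at 0.15 (SE 0.07, unadjusted p = 0.0375 in edgeR). It was the only 1 of the 11 at an unadjusted p under 0.05. Alg12, a mannosyltransferase gene of glycan assembly in the ER, was at 0.03 (SE 0.10). The 330 tested genes outside the set with a CARE match had a median of 0.01, and the 121 with a UPRE match one of -0.01. Variation between libraries was lower for the set than over all genes, with a median biological coefficient of variation of 7.3% against 9.88%. It was not particular to the set, since the 150 other pathway genes had a median of 7.66%. Derl3, Adcy3 and Alg12 were named after their values were seen.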
